A study of Sus scrofa with 48 samples.

Results

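Heat shock proteins of the cytosol and of mitochondria were examined in pig liver through 8 genes: HSPA8, HSPH1, DNAJB1, HSP90AA1, HSP90AB1, HSPB1, HSPD1 and HSPE1. A probe belonged to one of these genes when the scanner output gave that gene's name, or when the accession in the scanner output was listed under it by RefSeq. This gave 55 probes of the 45236 tested, for 8 of 10586 named genes. Liver RNA of 48 castrated male Large White pigs was measured, 1 single-dye Agilent array per pig. The pigs came from lines divergently selected for residual feed intake (RFI), the feed eaten beyond what growth rate and backfat thickness predict. Pigs from the low RFI line are therefore the more efficient. In each line, 12 pigs received a high-fat high-fiber diet (HF) and 12 a low-fat low-fiber diet (LF), and all were killed 2 h after a meal. All pigs carried the background of a single breed, and no unselected line was measured here.

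Heat shock proteins are chaperones, which bind unfolded or partly folded proteins and keep them from aggregating. HSPA8 is the constitutive HSP70 of the cytosol. It works in cycles of ATP hydrolysis that are started by J-domain proteins such as DNAJB1 and reset by nucleotide exchange factors such as HSPH1. HSP90AA1 and HSP90AB1 are the stress-inducible and the constitutive form of cytosolic HSP90, which finishes the folding of kinases and steroid receptors. HSPB1 is a small heat shock protein that holds unfolded proteins without ATP. HSPD1 and HSPE1 form the barrel and the lid of the mitochondrial chaperonin, and their genes are neighbours in the reference table of the pig genome assembly Sscrofa11.1. In stressed cells, HSF1 binds the promoters of many of these genes and activates them.

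Levels are given on the median-centred log2 scale: the log2 of the background-subtracted intensity of a probe minus the median of its array, so that 1 unit is a doubling of signal and 0 is the middle of the array. Levels were not compared between probes. The probes numbered 2 for HSPA8, 4 for HSPH1, 5 for DNAJB1, 8 for HSP90AA1, 7 for HSP90AB1, 2 for HSPB1, 21 for HSPD1 and 6 for HSPE1. On each of the 48 arrays, all 55 exceeded background by the scanner software's test. The mean level was below the middle of the array for 3 dim probes: O9993 of HSPH1, O14652 of HSP90AB1 and O3429 of HSPD1, at -2.25, -1.99 and -1.57. For each gene the probe of highest mean level stood for the gene. Liver is a mixture of cells, and fewer cells of a type cannot be told apart from less RNA per cell.

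The HSP90AA1 probes A_72_P525187 and O8902 carried the same 60 bases and so measured the same target in every pig. The sequence is shown because the pair gives the difference between spots of 1 array.
HSP90AA1, both probes: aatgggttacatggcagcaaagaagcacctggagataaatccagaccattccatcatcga
Their difference had an SD of 0.0587 over the 48 pigs, or 0.0415 for a single spot. This leaves out the error of RNA extraction, labelling and hybridization, for which no repeat was used here. Over the 55 probes, 34 overlapped another member probe, by 20 or more identical bases in a row or by 20 or more aligned bases with at most 1 difference, so probes of a gene are not independent measurements. The 3 dim probes lay on the reverse strand. O14652 was the reverse complement of the representing HSP90AB1 probe over 30 bases. O9993 and O3429 hold the known protein-coding frame of HSPH1 and HSPD1 on their opposite strand, a reading from background knowledge, since no reference transcript was used here. Their r with the representing probes was 0.29 for O14652, 0.51 for O9993 and 0.07 for O3429. The values of these 3 probes are therefore given as those of the probes, counted by the name the array gives them, and not as levels of the genes. Among the other 52 probes, 2 were called for line, 0 for diet (2 at an unadjusted P under 0.05) and 0 for the interaction (0 at P under 0.05).

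Few of these probes differed between lines or diets. For line, 2 of 55 probes (3.64%) passed the cut-offs of P under 0.01 and FC over 1.1, by limma's fit of line, diet and their interaction to every probe, against 6.91% of all tested probes. Both were lower in the low RFI line, as were 3.49% of all probes: O8477 of HSPE1 and A_72_P679687 of HSPB1. At a P-BH (Benjamini-Hochberg) of 5% there was 1 of 55, O8477, against 3.93% of all probes, and at an unadjusted P under 0.05 there were 5 (9.09%), against 14.7%. The median log2 FC of the members was -0.01, and that of all tested probes 0.01. Of the 55 probes, 34 overlapped another member probe, so these probe shares do not count separate results. By gene, counting a gene if any of its probes passed, 2 of 8 were called, HSPB1 and HSPE1, against 9.27% of all named genes. These shares are not alike, since the 8 genes had 55 probes and the 10586 named genes had 20756. The HSPE1 call rests on O8477 alone. With the probes of each gene averaged, of the 8 genes only HSPB1 was called (limma P = 0.0094, P-BH = 0.134). HSP90AB1, HSPB1 and HSPE1 had a probe at an unadjusted P under 0.05, as did 19.3% of named genes. These gene shares were not tested.

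For diet, 0 of 55 probes were called by limma, against 4.61% of all probes, and 0 reached a P-BH of 5%, against 0.455%. At an unadjusted P under 0.05 there were 3 (5.45%), against 14.4%, and the ANOVA without moderated variances also called 0. The sign was lower with the HF diet for 43 of 55 probes, with a median of -0.04 against -0.01 over all probes. Probes of a gene share their target, so these signs are not 55 separate results.

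**Figure D1:**
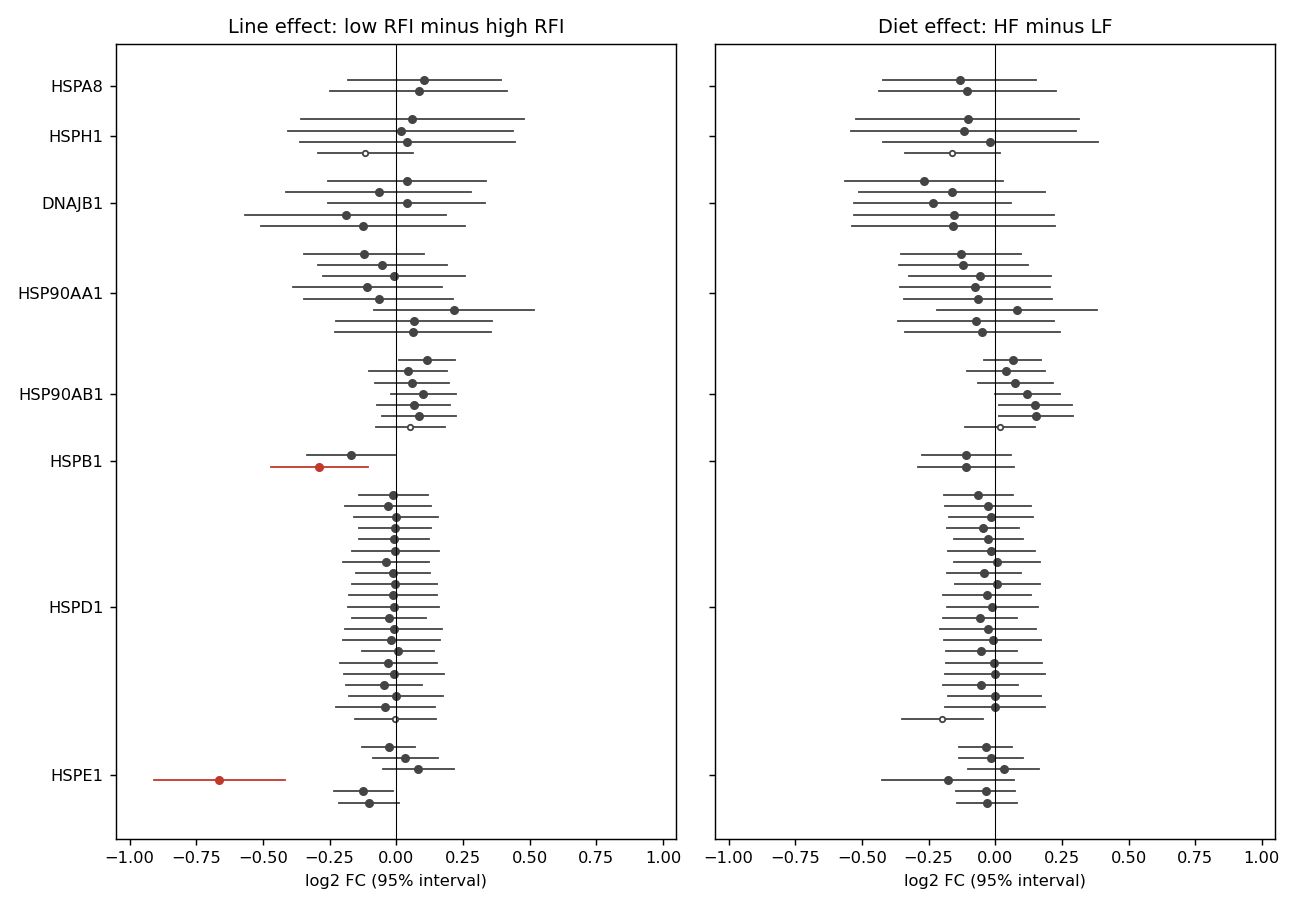
Log2 FC of every member probe with its 95% interval, for line (left, low RFI minus high RFI) and diet (right, HF minus LF). Probes are grouped by gene from the brightest down, open circles are the 3 dim probes and red marks called probes. Red appears only for line, on HSPB1 A_72_P679687 (-0.29) and HSPE1 O8477 (-0.66).

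For HSPA8 no line or diet difference passed the test, and its levels varied widely between pigs. In low RFI pigs, its lowest, median and highest levels were 6.42, 7.84 and 8.22 with the HF diet and 7.49, 7.86 and 8.71 with the LF diet. In high RFI pigs they were 6.61, 7.82 and 8.49 with the HF diet and 6.37, 7.63 and 8.57 with the LF diet. The 4 groups overlapped, although no low RFI pig of the LF diet was below 7.49, and the highest pig had 5.07 times the signal of the lowest. The log2 FC between lines, low minus high RFI, was 0.10 (95% interval -0.18 to 0.39, limma P = 0.468), and the diet difference, HF minus LF, was -0.13 (P = 0.357). The second HSPA8 probe gave 0.08 and -0.10.

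HSPH1, the HSP110 exchange factor of HSPA8, had the widest spread of the representing probes. Its lowest, median and highest levels were, for low RFI pigs, 2.22, 3.88 and 4.48 with the HF diet and 3.38, 4.04 and 4.76 with the LF diet. In the high RFI line they were 2.2, 4.06 and 5.07 with the HF diet and 2.23, 3.62 and 5.05 with the LF diet. The highest pig thus had 7.30 times the signal of the lowest, and both of these pigs were high RFI pigs of the HF diet. Pigs from the low RFI line under the LF diet, of which none was below 3.38, had an SD of 0.41, against 0.72 to 0.90 in the other groups. That difference in spread was not tested. The line difference was 0.06 (95% interval -0.36 to 0.48, P = 0.773) and the diet difference was -0.10 (P = 0.626).

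DNAJB1, the J-domain partner of HSPA8, ranged from 4.55 to 6.21 (median 5.71) in low RFI pigs of the HF diet and from 5.62 to 6.59 (median 5.94) in those of the LF diet. In high RFI pigs the ranges were 4.90 to 6.64 (median 5.75) and 4.94 to 6.96 (median 5.65). The groups overlapped. Its line difference was 0.04 (95% interval -0.26 to 0.34, P = 0.785). All 5 DNAJB1 probes were lower with the HF diet, by 0.15 to 0.27 on the log2 scale, and none passed the test. For the representing probe the diet difference was -0.27 (95% interval -0.56 to 0.03, P = 0.075).

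HSP90AA1 ranged from 6.14 to 7.54 (median 7.01) in low RFI pigs of the HF diet, and from 6.69 to 7.78 (median 7.11) in those of the LF diet. In high RFI pigs it ranged from 6.67 to 7.66 (median 7.22) and from 6.33 to 7.99 (median 7.10). The groups overlapped, and neither the line difference of -0.12 (95% interval -0.35 to 0.10, P = 0.287) nor the diet difference of -0.13 (P = 0.257) passed the test. Line differences of the 8 probes ran from -0.12 to 0.22.

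HSP90AB1, the constitutive form, was far steadier than HSP90AA1. It ranged from 7.55 to 7.83 (median 7.68) in low RFI pigs of the HF diet and from 7.35 to 8.05 (median 7.58) in those of the LF diet. In high RFI pigs it ranged from 7.24 to 7.72 (median 7.59) and from 6.97 to 7.79 (median 7.55). The groups overlapped. The line difference was 0.12 (95% interval 0.01 to 0.22, P = 0.033) and was not called at the P of 0.01 used here. The 6 HSP90AB1 probes other than the dim O14652 had a positive sign for line, from 0.05 to 0.12, and for diet, from 0.04 to 0.15. Some of them overlap, so these signs are not separate results. O14652, on the reverse strand, had 0.05 for line and 0.02 for diet. The smallest diet P of all 7 probes was 0.032.

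**Figure D2:**
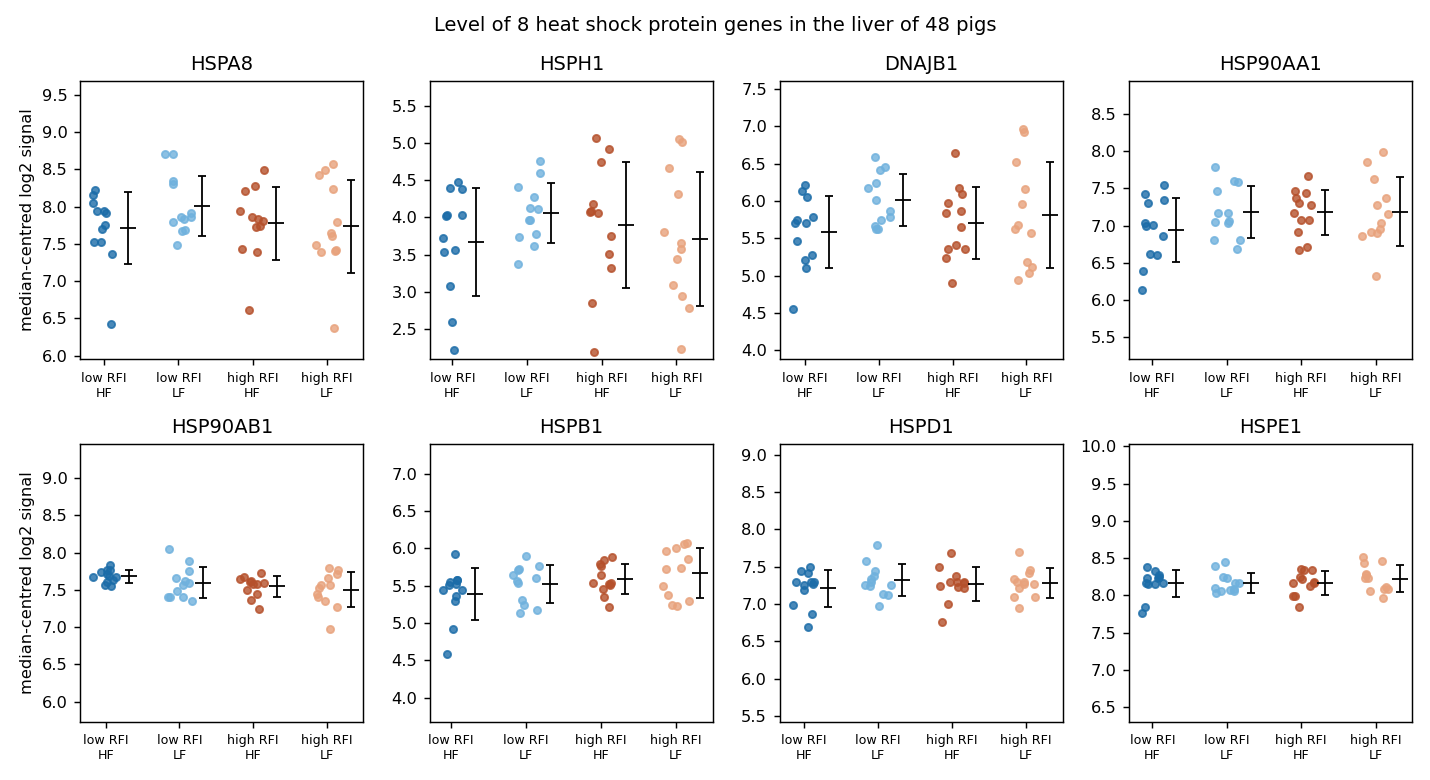
Level (median-centred log2 signal) of the representing probe of each gene in each pig, by line and diet, with 12 pigs per group. Bars to the right of the points are the mean and SD, and each panel spans the same number of log2 units. HSPH1 (2.2 to 5.07), HSPA8 (6.37 to 8.71) and DNAJB1 (4.55 to 6.96) covered wider ranges over the 48 pigs than HSP90AB1 (6.97 to 8.05) and HSPE1 (7.77 to 8.51).

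HSPB1 had lower expression in low RFI pigs on 1 of its 2 probes. The sequences of both are shown because only the first passed the cut-offs.
HSPB1, A_72_P679687: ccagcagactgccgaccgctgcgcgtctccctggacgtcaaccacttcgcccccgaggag
HSPB1, A_72_P088101: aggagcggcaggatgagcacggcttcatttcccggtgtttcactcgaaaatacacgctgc
The sequences did not overlap. On A_72_P679687, low RFI pigs had 2.82, 3.77 and 4.18 (lowest, median and highest) with the HF diet and 3.44, 3.87 and 4.26 with the LF diet. High RFI pigs had 3.54, 4.02 and 4.41 with the HF diet and 3.39, 4.15 and 4.53 with the LF diet. The ranges overlapped, but in 20 of 24 low RFI pigs the level was under the high RFI median. Low RFI pigs averaged 3.75 ± 0.32 and high RFI pigs 4.04 ± 0.31 (SD, n = 24 each), a log2 FC of -0.29 (SE 0.0902, P = 0.0025, P-BH = 0.058), so that the call did not hold at a P-BH of 5%.

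Both HSPB1 probes pointed the same way. The brighter probe, A_72_P088101, had a line difference of -0.17 (95% interval -0.34 to -0.0033, P = 0.046), with levels of 4.58 to 5.93 in low RFI pigs and 5.22 to 6.07 in high RFI pigs. The probes had a Pearson r of 0.93 over the pigs. The lowest pig on both was pig 12 of the low RFI line under the HF diet, and without it the differences were -0.25 (P = 0.0046) and -0.13 (P = 0.088). Arrays were scanned on 2 days, 24 on each. On A_72_P679687 the line difference was -0.29 on both days, with P = 0.0021 on the first and P = 0.080 on the second. It was negative on 5 of 6 slides.

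HSPD1, the mitochondrial HSP60, had line differences between -0.05 and 0.01 on its 21 probes, and none was called (smallest P = 0.516). Its representing probe ranged from 6.69 to 7.5 (median 7.28) in low RFI pigs of the HF diet and from 6.97 to 7.79 (median 7.28) in those of the LF diet. In high RFI pigs it ranged from 6.76 to 7.69 (median 7.28) and from 6.94 to 7.70 (median 7.28). The medians of the 4 groups were the same to the second decimal. The line difference was -0.01, with a 95% interval of -0.14 to 0.12 (P = 0.866). With diet, the smallest P of the 21 probes was that of the dim reverse-strand probe O3429 (log2 FC of -0.20, P = 0.011), which was not called.

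HSPE1, the HSP10 lid, was called for line on 1 of its 6 probes, O8477, with lower signal of that probe in low RFI pigs. The representing probe, A_72_P137646, ranged from 7.77 to 8.45 in low RFI pigs and from 7.84 to 8.51 in high RFI pigs, with medians of 8.16 and 8.20. These ranges overlapped almost fully, and the line difference was -0.03 (95% interval -0.13 to 0.07, P = 0.556). Probe O8477 had levels of 5.68, 6.10 and 7.0 (lowest, median and highest) in low RFI pigs of the HF diet and of 5.91, 6.11 and 7.05 in those of the LF diet. In high RFI pigs the levels were 6.06, 6.89 and 7.56 with the HF diet and 5.92, 7.17 and 7.61 with the LF diet. The median was lower in the low RFI line within both diets, while the ranges overlapped.

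On O8477 low RFI pigs averaged 6.29 ± 0.43 and high RFI pigs 6.95 ± 0.44 (SD, n = 24 each). The log2 FC was -0.66 (SE 0.123, P = 2.1e-06, P-BH = 0.0004), or 0.631 times the signal, and 22 of 24 low RFI pigs were below the high RFI median. The difference was present within both diets (-0.58 with HF, P = 0.0015, and -0.74 with LF, P = 8.9e-05), on both scan days (-0.72, P = 3.7e-05, and -0.60, P = 0.0028) and on 6 of 6 slides (-0.99 to -0.39). The interaction term was 0.16 (P = 0.517) and was not called. Without pig 12 of the low RFI line under the HF diet the difference was -0.64 (P = 4.5e-06). Of the other 5 probes of HSPE1, A_72_P725658 and A_72_P073221 had log2 FC of -0.12 (P = 0.028) and -0.10 (P = 0.072), and A_72_P752325 and A_72_P746004 had 0.03 and 0.08. None of these was called.

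Probe O8477 shared only part of its sequence with the rest of HSPE1 on the array, which is why it is printed beside its one overlapping neighbour. Capitals mark the bases the pair shared.
HSPE1, A_72_P752325: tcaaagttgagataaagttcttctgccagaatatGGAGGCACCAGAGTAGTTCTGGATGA
HSPE1, O8477: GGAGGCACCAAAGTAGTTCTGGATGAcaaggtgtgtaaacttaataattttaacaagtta
The shared stretch was 26 bases long and held 1 difference, G11A, counted from 1 at its 5′ end, with the base of A_72_P752325 first. The other 34 bases of O8477 matched no other probe of the 8 genes over any window of 15 bases on either strand. No window of 20 bases of O8477 was found in another probe of the array. Transcript sequences were not used here, so the part of the gene that these 34 bases come from is not given.

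The values of O8477 had an empty stretch from 6.33 to 6.69, the widest inner gap of the probes examined pig by pig. Below it lay 17 of 24 low RFI pigs and 4 of 24 high RFI pigs, and above it 7 and 20. By diet, 9 low RFI pigs of the HF diet and 8 of the LF diet were below it, against 3 and 1 high RFI pigs. For the other HSPE1 probe shown with it, the widest inner gap was 0.04. The gap was seen in these values, and no test was made of it. Among the other 5 HSPE1 probes, Pearson r over all pigs was 0.52 to 0.94, as a description. O8477 itself had lower r with them: 0.51 with A_72_P725658, 0.50 with A_72_P073221 and 0.28 with A_72_P137646. With A_72_P752325 and A_72_P746004 its r was -0.09 and -0.28. Its values are therefore given as those of the probe, and not as the level of HSPE1.

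**Figure D3:**
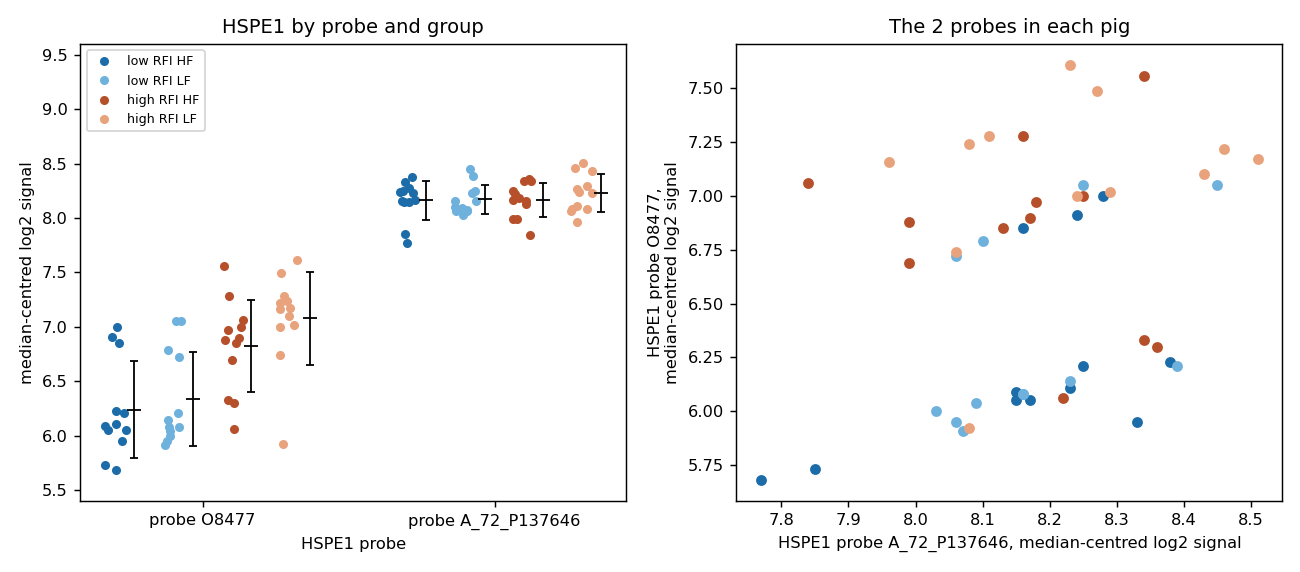
Left, level of HSPE1 (median-centred log2 signal) on probe O8477 and on the representing probe A_72_P137646 for each of 48 pigs, with the mean and SD of each group of 12. Right, the same probes against each other, 1 point per pig, coloured by group as on the left. On O8477 no pig lies between 6.33 and 6.69, and 17 low RFI pigs against 4 high RFI pigs lie below that stretch.

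Of the protein-coding genes nearest to HSPE1 in the reference table, 8 on each side, 8 in all had a tested probe, HSPD1 among them. By limma, 0 of these had a probe called for line, against 9.27% of all named genes, and 2 had one at an unadjusted P under 0.05, against 19.3%. These were SF3B1 (0.31, P = 0.029, on 1 of its 17 probes) and COQ10B (-0.15, P = 0.035). The named genes most like O8477 over the 48 pigs were FAM103A1 (r = 0.68), NRN1 (r = 0.62) and CALCB (r = 0.61). All 3 were themselves called as lower in low RFI pigs, and after subtraction of group means r was 0.41, 0.33 and 0.42.

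For the interaction, 1 of 55 probes had P under 0.01, against 0.376% of all probes, and 1 had P under 0.05, against 2.37%. It was the dim reverse-strand probe O9993, which the array lists under HSPH1 (P = 0.006, P-BH = 0.9999). On O9993, low RFI pigs had -3.13, -2.49 and -2.15 (lowest, median and highest) with the HF diet and -2.56, -2.05 and -1.67 with the LF diet. High RFI pigs had -2.54, -2.20 and -1.74 with the HF diet and -2.70, -2.20 and -1.65 with the LF diet. The low RFI pigs of the HF diet were the lowest group and overlapped with the others. The other 3 HSPH1 probes had interaction terms between -0.57 and -0.48 with P of 0.174 or more. Without pig 12 the O9993 term was -0.45 (P = 0.0115), no longer called.

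On the representing probes, differences between pigs of the same group were larger for HSPH1, DNAJB1, HSPA8 and HSP90AA1 than for the others. The SD within groups of the representing probe was 0.74 for HSPH1, 0.52 for DNAJB1, 0.51 for HSPA8 and 0.39 for HSP90AA1. It was 0.29 for HSPB1, 0.22 for HSPD1, 0.18 for HSP90AB1 and 0.16 for HSPE1. Among probes whose mean level lay within 0.5 of their own, these SD stood at the percentiles 97.6, 92.8, 94.1 and 89.6 for the first 4 genes. For the rest they stood at 72.8, 59.6, 41.6 and 36.1. The high percentiles held for the brighter probes of the first 4 genes. All DNAJB1, HSPA8 and HSP90AA1 probes, and all HSPH1 probes but the dim one, were at the percentile 88.8 or above. HSPE1 probe O8477 stood at 90.5, higher than the representing probe of HSP90AA1. HSPD1 probes reached 80.8, above both HSPB1 probes (72.8 and 78.8). HSP90AB1, in contrast with HSP90AA1, had no probe above 64.4. The spread also differed by scan day. Over all pigs of a day, the SD of each representing probe was larger on the second day than on the first. It was 0.61 and then 0.83 for HSPH1, 0.33 and 0.63 for HSPA8, and 0.11 and 0.24 for HSP90AB1. That difference was not tested.

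**Figure D4:**
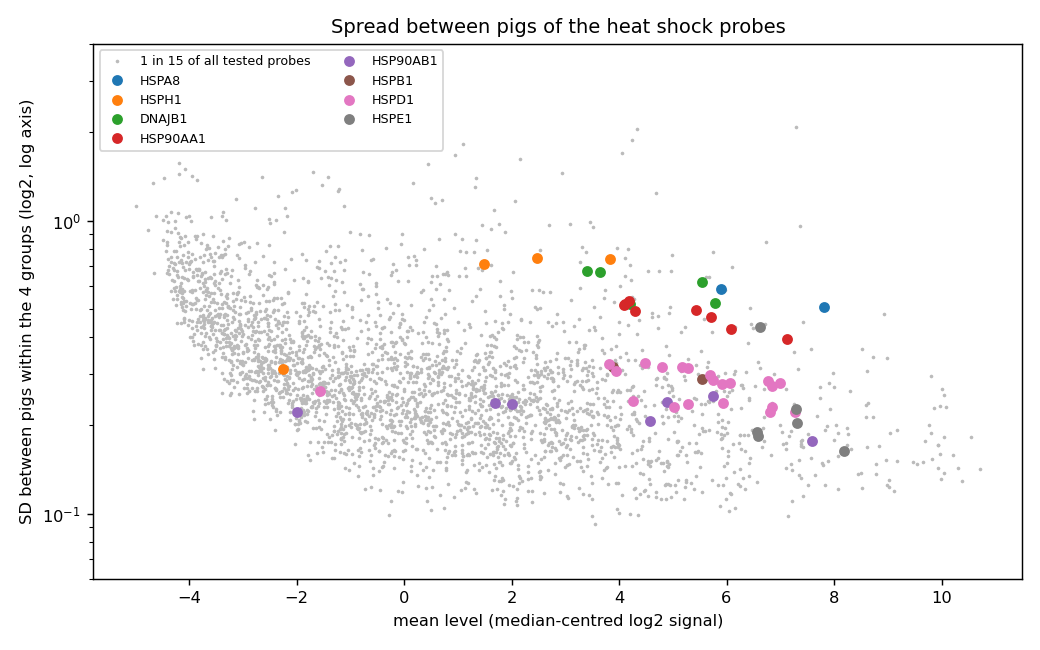
SD between pigs within the 4 groups (log2 units, log axis) against mean level (median-centred log2 signal) for the 55 member probes, coloured by gene, and for 1 in 15 of all tested probes in grey. Apart from the dim HSPH1 probe (SD 0.31), probes of HSPH1, DNAJB1, HSPA8 and HSP90AA1 lie in the upper part of the grey points (SD 0.39 to 0.75). Some grey points of like level lie above them. Probes of HSP90AB1 lie lower (0.18 to 0.25). HSPE1 probe O8477 has an SD of 0.43.

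The same pigs were low in several of these genes. Of the 9 pigs lowest in HSPH1, 8 were among the 9 lowest in HSPA8 and 8 among the 9 lowest in DNAJB1. For HSP90AA1 the number was 5, for HSPE1 it was 4, and for HSP90AB1, HSPB1 and HSPD1 it was 3. At the other end the overlap was more even. Of the 9 pigs highest in HSPH1, 6 were among the 9 highest in each of HSPA8, DNAJB1 and HSP90AA1. For HSP90AB1 that number was 5, and for HSPB1, HSPD1 and HSPE1 it was 4. These overlaps were not tested. The 9 pigs lowest in HSPH1 came from both lines and both diets but not from every group. They were 3 low RFI and 2 high RFI pigs of the HF diet, and 0 low RFI and 4 high RFI pigs of the LF diet. Pig 12 was the lowest of all 48 in DNAJB1, HSP90AA1, HSPB1, HSPD1 and HSPE1 and the second lowest in HSPA8 and HSPH1, whereas it ranked 29th from the lowest in HSP90AB1.

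Across the 48 pigs, HSPA8, HSPH1, DNAJB1 and HSP90AA1 moved together. This group of 4 was not set in advance and leaves out HSP90AB1 and HSPB1, which are cytosolic too. Its r and P therefore do not test the grouping. HSPA8 and HSPH1 had a Pearson r of 0.92 and a Spearman rho of 0.92, and HSPH1 and DNAJB1 had 0.84 and 0.88. The 6 pairs among these 4 genes had r of 0.69 to 0.92 and rho of 0.67 to 0.92, with a permutation P of 1e-05, the smallest that 100000 resamples can give, and an adjusted P of 3.5e-05 for r over the 28 pairs of the 8 genes. Without the 2 pigs farthest from the median, r was 0.70 to 0.90. On residuals from the group means it was 0.70 to 0.92, within the low RFI line 0.77 to 0.91 and within the high RFI line 0.62 to 0.94. It was 0.54 to 0.85 among arrays of the first scan day and 0.76 to 0.96 among those of the second, so these relations were present on both.

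The mitochondrial partners HSPD1 and HSPE1 had r of 0.78 and rho of 0.67 (permutation P of 1e-05 for both, adjusted 3.5e-05 for r). Without the 2 pigs farthest from the median r was 0.70, and by scan day it was 0.60 and 0.87. Between the group of 4 cytosolic genes above and the 2 mitochondrial ones r was lower, 0.40 to 0.55 over 8 pairs (rho 0.28 to 0.48, adjusted permutation P of 2e-04 to 0.006 for r, and up to 0.06 for rho). These 8 values did not hold on each scan day: they were 0.01 to 0.27 on the first and 0.49 to 0.72 on the second. Whether the days differ was not tested. HSPB1 had r of 0.41 to 0.60 with the same 4 cytosolic genes and 0.62 with HSPE1. HSP90AB1 had the lowest r over all pigs, 0.24 to 0.48 with the other 7 genes (rho 0.17 to 0.50). Its adjusted permutation P for r was above 0.05 with HSPB1 (0.084) and HSPD1 (0.099). For rho the adjusted permutation P was 0.011 with HSPB1 (rho 0.39) and 0.26 with HSPD1 (rho 0.17). On residuals from the group means its r was 0.31 to 0.53, against 0.38 to 0.56 for the 8 cytosolic-mitochondrial pairs above. By scan day its r was -0.04 to 0.64 on the first and 0.13 to 0.51 on the second.

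**Figure D5:**
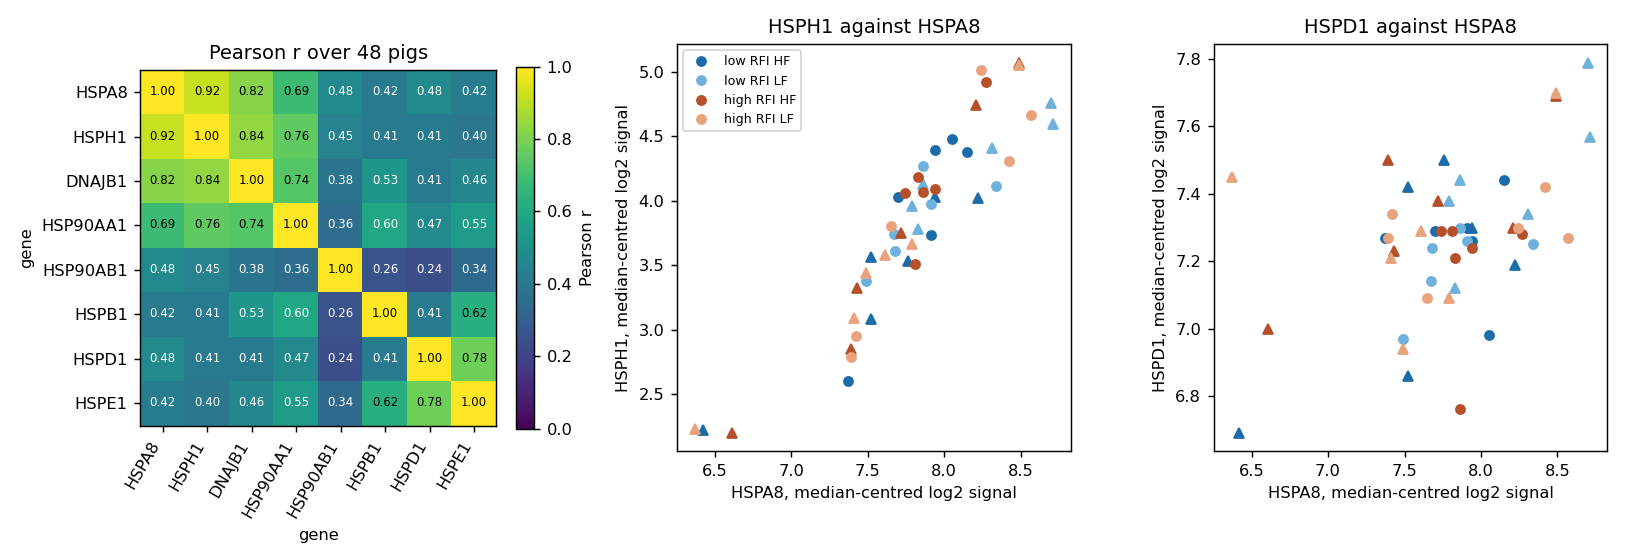
Left, Pearson r over 48 pigs between the representing probes of the 8 genes. Middle and right, HSPH1 and HSPD1 against HSPA8, 1 point per pig (median-centred log2 signal), coloured by group, with circles for the first scan day and triangles for the second. HSPH1 follows HSPA8 closely (r = 0.92) and HSPD1 loosely (r = 0.48).

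The named genes most like each member over the 48 pigs were often chaperones too. HSPA8 was nearest to TCP1 (r = 0.89), AHSA1 (0.87) and CCT5 (0.87), that is subunits of the TRiC chaperonin and an activator of HSP90. HSPH1 was nearest to CACYBP (r = 0.92), PPID (0.89) and AHSA1 (0.88), and HSP90AA1 to CACYBP (0.80), AHSA1 (0.80) and NAA50 (0.79). DNAJB1 was nearest to probes named HSPA2 (r = 0.90), HSP70.2 (0.88) and HSPA6 (0.80), all of the HSP70 family, whose close copies may share signal on an array. None of these probes was called for line.

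HSP70.2, which RefSeq lists under the names HSPA1A and HSPA1B of the stress-inducible HSP70, ranged from 2.82 to 6.41 between pigs, a 12.0-fold difference. Its line difference was -0.21 (P = 0.368) and its diet difference -0.39 (P = 0.098), and neither of its 2 probes was called. The mitochondrial pair had other neighbours. HSPD1 was nearest to TIMM8A (r = 0.79), C11ORF73 (0.76) and NAA50 (0.76), and HSPE1 to TIMM8A (0.67), SNRPG (0.67) and MRPL51 (0.65). TIMM8A is a chaperone of protein import into mitochondria and MRPL51 a protein of the mitochondrial ribosome. HSPB1 was nearest to CRYAB (r = 0.63), another small heat shock protein, PPP1R11 (0.61) and ARL2 (0.60). HSP90AB1 had weaker best matches, FXR1 (r = 0.67), NDUFB8 (0.60) and UBB (0.59).

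Other chaperone genes followed HSPA8 in part. Of 67 tested genes in 7 lists of chaperones and their regulators, 28 (41.8%) had r above 0.5 with HSPA8, against 8.02% of 10578 named genes other than the members. The lists differed: 6 of 7 cytosolic HSP70 and HSP110 genes were above 0.5, 9 of 16 co-chaperones of HSP70 and HSP90, 8 of 13 genes of TRiC and prefoldin, 2 of 10 J-domain proteins and 2 of 14 mitochondrial chaperones and proteases. HSF1 itself had r of 0.43 and an SD within groups of 0.095. With HSPD1, 13 of the 67 genes (19.4%) were above 0.5, against 4.55% of named genes, and by list these were 5 of 13 genes of TRiC and prefoldin, 3 of 14 mitochondrial genes, 2 of 7 of HSP70 and HSP110, 2 of 16 co-chaperones and 1 of 3 small heat shock proteins. The highest were the mitochondrial J-domain proteins DNAJA3 (0.73) and DNAJC19 (0.70), followed by CCT4 of TRiC (0.63). These r values describe the same 48 arrays, whose centring they share.

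Few genes of these lists were called. For line, 3 of 67 genes (4.48%) had a called probe, against 9.27% of all named genes, and all 3 were lower in low RFI pigs, as were 4.79% of named genes. YME1L1, a protease of the mitochondrial inner membrane, was the one at a P-BH of 5%, with a log2 FC of -0.23 (SE 0.0542, P = 0.0001, P-BH = 0.0061). HSPA1L had -0.39 (P = 0.008, P-BH = 0.122) and HSPA2 had -0.28 on 1 of its 2 probes (P = 0.0093, P-BH = 0.134). For YME1L1 the difference was not called among arrays of the second scan day alone (-0.11, P = 0.199), nor was that of HSPA1L (-0.07, P = 0.719). Without pig 12, HSPA1L (P = 0.0104) and HSPA2 (P = 0.0107) were not called, and HSPA2 lost its call in 7 of 16 alternatives in all (P of 0.00099 to 0.062 over the 16). For diet, 1 of 67 genes (1.49%) was called, against 5.99% of named genes: the dim probe of BAG4, an HSP70 co-chaperone, was higher with the HF diet (0.31, P = 0.0069, P-BH = 0.173), as were 2.79% of named genes on some probe. The medians of the lists' log2 FC were -0.01 for line and -0.04 for diet, those of all probes 0.01 and -0.01.

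By list, the called genes for line were 2 of 7 cytosolic HSP70 and HSP110 genes and 1 of 14 mitochondrial genes. The lists of heat shock factors (4 genes tested), J-domain proteins (10), co-chaperones (16), small heat shock proteins (3) and TRiC and prefoldin (13) had 0. Immediate early genes, which respond to handling and stress within minutes, had 1 of 7 called for line, ATF3 (-0.76, P = 0.0062, P-BH = 0.105), and 0 for diet. The r of these 7 early genes with HSPA8 was -0.07 to 0.12, and FOS had an SD within groups of 1.46 and JUN of 0.73.

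The tissue label was checked with markers. All 10 tested hepatocyte markers lay between 8.20 and 11.1, near the top of the array, and 1 was called as higher in the low RFI line. Markers of other cells were called for line in 2 of 9 genes of Kupffer cells and 2 of 5 of cholangiocytes, all lower in the low RFI line, and in 2 of 7 of stellate cells, both higher. Of all named genes, 9.27% were called, and 4.79% as lower. A gene counted if any of its probes passed, as 1 of 18 did for EPCAM and 1 of 4 for COL1A2. Signs were mixed: the Kupffer median log2 FC was -0.18, with CD5L at 0.11 and CD14 at 0.06. The cholangiocyte median was -0.09, with SOX9 at 0.40 and CFTR at 0.23. None was called among 7 of T and NK cells, 3 of B cells, 7 of endothelium and 3 of red cells. The mean level of the Kupffer list was 3.45 to 4.44 in low RFI and 3.61 to 4.49 in high RFI pigs, that of the stellate list 2.81 to 3.57 and 2.63 to 3.64, and that of the cholangiocyte list -2.21 to -0.82 and -2.52 to -0.81. Their part in the differences of HSPB1 and HSPE1 was not tested. Median intensities of the arrays lay between 141 and 336, and HSPA8 and O8477 had r of 0.20 and 0.07 with its log2.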

How the data were processed

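Per the labels, Cy3-labelled liver RNA was hybridized to custom porcine Agilent arrays, 1 per pig. The authors deposited scanner output with a background-subtracted intensity per spot, not normalized between arrays, and log2 values of filtered spots, which they median-centred (R 2.10.0 in the submitters' processing notes). No genome build is given in the sources used here. The intensity was used here: control spots were dropped, 483 outlier spots set to missing, spots of a probe averaged, and log2 values centred on the median of each array. A probe was tested if at least 12 arrays had it well above background. The number of arrays limits the precision.

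Line, diet and their interaction were fitted to every probe with limma 3.58.1 in R 4.3.3, and P-BH was adjusted over all 45236 probes. A call needed P under 0.01 and an FC above 1.1 (interaction, P alone). Permutation tests of correlations were 2-sided, with 100000 resamples, and were added to the planned description. Named list genes were those at a P-BH of 5% or, of the other called genes, the 3 largest rises and falls; HSPE1 neighbours, HSP70.2, HSF1, DNAJA3, DNAJC19, CCT4 and early genes were named after their values were seen. Members and lists were chosen with earlier results of these data known. Fits were tested on simulated data. Gene symbols come from RefSeq (Sscrofa11.1) by accession for 7062 probes and from the scanner output for 16898.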

Additional observations from a re-analysis of the deposited data

Results flagged for a closer look

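On the dim probe O9993, which the array lists under HSPH1 but which runs on the reverse strand, the line difference differed between diets at an unadjusted P under 0.01. The interaction term, the line difference (low minus high RFI) with the HF diet minus that with the LF diet, was -0.51 (SE 0.178, limma P = 0.006), and its P-BH over all probes was 0.9999. The line difference was -0.37 with HF (P = 0.0048) and 0.14 with LF (P = 0.272). On the 3 brighter HSPH1 probes the terms were -0.57 to -0.48, with P of 0.174 to 0.237, and were not called. Groups held 12 pigs, so single outlying pigs were not tested by Dixon's ratio.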

How the results depend on the processing

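Results were recomputed under 16 alternatives, of which the one without pig 12 was chosen after seeing the data. The number of member probes called for line, 2 as reported, was 1 among arrays of the second scan day alone (O8477) and 1 when the probes of a gene were averaged, where HSPB1 was called (-0.23, P = 0.0094) and HSPE1 was not (-0.13, P = 0.0127). It was 2 under the others, and the O8477 difference stayed between -0.72 and -0.60 (P of 8.3e-07 to 0.0028). For diet, 1 probe in place of 0 was called with normexp, 1 with the median intensity without background subtraction and 1 with slide as a block, O3429 in each. The interaction count was 0 in place of 1 with normexp, the median intensity, the deposited log2 values, the first scan day alone and without pig 12. In the chaperone lists, the line count of 3 ranged from 0 to 4: it was 0 on the second scan day alone, 1 without pig 12, 4 with slide as a block (TRAP1 added) and 2, without HSPA2, in 5 alternatives (quantile normalization, no filter on dim probes, the unmoderated ANOVA, the first scan day alone and the mean over probes). The diet count of 1 (with normexp and the median intensity HSPB6 in place of BAG4) was 0 with the filter on all arrays, the deposited log2 values and on each scan day alone. Of 363 recomputed single differences, 341 kept their side of the cut-offs, 21 lost the call, 1 gained it, and no called value changed sign; 6 uncalled ones did. The cause of these changes was not tested. Single scan days hold 24 arrays, and the fit without an interaction term and the mean over probes gave no interaction count.

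The dim reverse-strand probes O9993, O3429 and O14652 are limited by their signal over background, and spot error was measured only on the identical HSP90AA1 pair.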
